A study of Macaca fascicularis with 6 samples.

Results

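Pericytes of the lung of cynomolgus monkeys were described here, in droplet-based single-cell RNA sequencing of 6 male monkeys aged 3 to 5 years. A cell was counted as a pericyte if at least 2 of COX4I2, HIGD1B, NOTCH3 and KCNJ8 had a unique molecular identifier (UMI, the tag that counts each captured RNA molecule once), if PTPRC and PECAM1 had none, if ITLN1 had fewer than 50 UMIs and if at most 1 of ACTG2, CNN1 and DES was detected. These 154 pericytes were 0.607% of the 25388 cells with more than 500 and fewer than 5000 genes and at most 25% mitochondrial UMIs (QC cells). The cells were thus chosen by measured values of 10 genes, and the levels of these genes in the pericytes are given below as a description with no test.

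The 3 monkeys of the asthma group (replicates 8, 10 and 11) were sensitized subcutaneously with Ascaris suum antigen at 1 mg/mL and challenged intranasally at 10 mg/mL up to week 11, and the 3 monkeys of the control group (replicates 1, 2 and 3) received the same amount of saline. Each monkey gave 1 library. Totals were 40556102 (replicate 1), 33210436 (2) and 32240293 (3) UMIs for the controls, and for asthma 41184329 (8), 41489879 (10) and 29014556 (11). The lung tissue was dissociated enzymatically and depleted of dead cells before loading, so all shares are shares of recovered cells.

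Pericytes are mural cells that lie under the basement membrane of capillaries and small vessels, where they touch endothelial cells (ECs). They are recruited by endothelial PDGF through PDGFRB, are instructed through NOTCH3 by ligands on ECs, and regulate capillary tone and stability. In the lung they are set apart from smooth muscle cells (SMCs) by a lower content of contractile proteins, and from fibroblasts (Fibs) by a low content of fibrillar collagen. COX4I2 encodes the lung isoform of subunit 4 of cytochrome c oxidase, HIGD1B a mitochondrial protein of the hypoxia-inducible domain family, and KCNJ8 the pore of the vascular ATP-sensitive potassium channel.

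Nearly all pericytes came from asthma libraries, and most from 1 of them. The controls held 2 pericytes (replicate 1), 1 (2) and 2 (3), and the asthma libraries 7 (8), 25 (10) and 117 (11). Asthma replicate 11 gave 76.0% of the pericytes and 80.2% of their UMIs, so pooled levels are mainly levels of that animal. A pericyte held a median of 2095.5 UMIs and 1268.5 genes, against 4241.0 UMIs and 1543.0 genes in the other QC cells.

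Of QC cells, pericytes made up 0.0444% (replicate 1), 0.0285% (2) and 0.0492% (3) in the controls, while the asthma shares were 0.163% (8), 0.53% (10) and 2.73% (11). Every asthma library lay above every control library, but the asthma libraries differed from each other by more than the lowest of them differed from the controls. Their 95% Wilson intervals, which cover counting error only, ran from 0.0788% to 0.335%, from 0.359% to 0.781% and from 2.29% to 3.27%, and the interval of asthma replicate 8 overlapped those of the controls. The mean was 1.14% ± 1.39 (SD, n = 3) in the asthma group and 0.0407% ± 0.0108 (SD, n = 3) in the control group, a difference of 1.1 percentage points (exact permutation test, two-sided, p = 0.1, which is the lowest value open to 3 libraries against 3). Without asthma replicate 11 the difference was 0.306 percentage points. Among cells of at least 1500 UMIs, thinned to that number, the share in asthma replicate 10 was 0.272%, where leaving out shallower cells removed 13 of its 25 pericytes and thinning 1 of the other 12.

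The share was also taken of mesenchymal cells alone, meaning pericytes, contractile SMCs, SOSTDC1 myofibroblast-like cells and matrix Fibs, each chosen by its own marker genes, 973 cells in all. Control shares were 2.33% (replicate 1), 1.35% (2) and 1.04% (3), and asthma shares 8.14% (8), 26.3% (10) and 26.6% (11). On this denominator asthma replicates 10 and 11 lay together, but at 13.1% and 23.1% when cells under 1500 UMIs (13 of 25 and 28 of 117 pericytes) were left out and the rest thinned. The difference of 18.8 percentage points between 20.3% ± 10.6 and 1.57% ± 0.67 (SD, n = 3 each; exact permutation p = 0.1) was 15.7 without replicate 11. Of QC cells without a PTPRC UMI, pericytes made up 3.64% ± 3.75 in the asthma group and 0.26% ± 0.00849 in the control group (SD, n = 3 each; exact permutation p = 0.1), a ratio of 14 against 28.1 of all QC cells. Against ECs (PECAM1-positive cells with at least 2 of 4 further EC genes) the groups overlapped, with 16.9 ± 18.0 pericytes per 100 ECs in the asthma group and 3.34 ± 1.22 in the control group (SD, n = 3 each; exact permutation p = 0.3). ECs moved in the same direction as the pericytes, at 43 (replicate 1), 32 (2) and 89 (3) cells in the controls against 241 (8), 236 (10) and 315 (11), and their part in the share of QC cells was not tested.

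**Figure D1:**
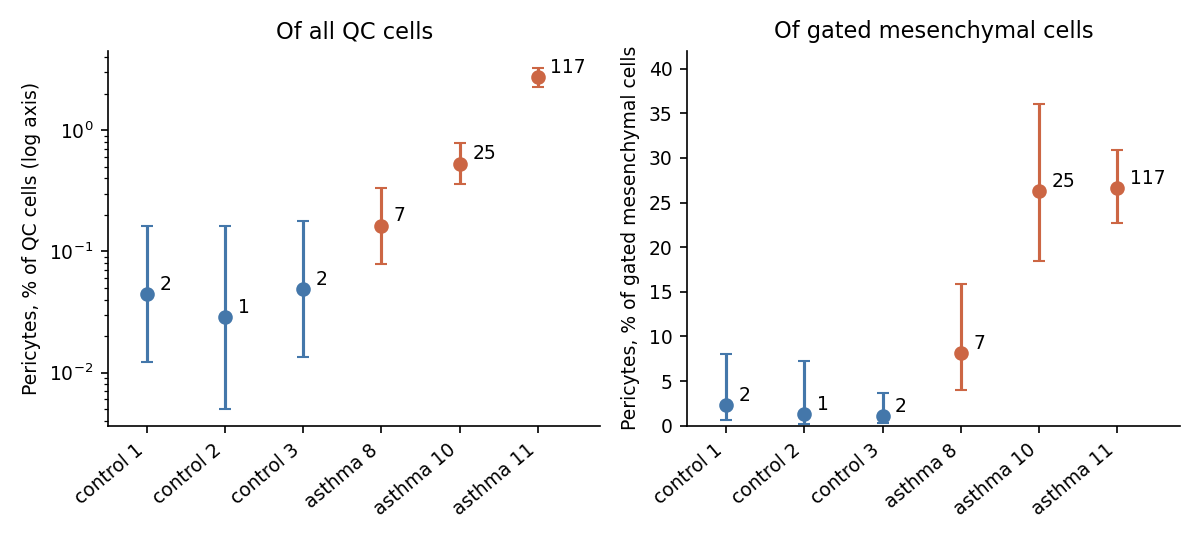
Pericytes as a percentage of QC cells (left, log axis) and of gated mesenchymal cells (right, linear axis) in each of the 6 libraries, with 95% Wilson intervals as bars and the number of pericytes beside each point. All 3 asthma libraries (orange) lie above all 3 control libraries (blue) on both denominators, and asthma replicates 10 and 11 lie apart on the left (0.53% and 2.73%) and close together on the right (26.3% and 26.6%).

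COX4I2, HIGD1B and NOTCH3 were found together in 117 of the 154 pericytes, with KCNJ8 in 39 of them and without it in 78. Exactly 2 gate genes were found in 28 cells, 3 in 87 and all 4 in 39. COX4I2 had 2212 UMIs in 96.8% of the pericytes, NOTCH3 779 UMIs in 94.2%, HIGD1B 666 UMIs in 81.8% and KCNJ8 80 UMIs in 34.4%. In 6603 T cells of the same libraries, which should lack them and have a median of 3841.0 UMIs per cell, the shares were 0.5%, 0.182%, 0.121% and 0.197%.

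COX4I2 had 66, 213 and 1922 UMIs in the pericytes of asthma replicates 8, 10 and 11, which was 6350, 5030 and 7030 counts per 1000000 UMIs of these cells (CPM). NOTCH3 had 2700, 2270 and 2340 CPM and HIGD1B 1350, 1580 and 2130 CPM in the same order.

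At the threshold, the 28 pericytes with exactly 2 gate genes were shallower (median 1331.5 UMIs) than those with all 4 (2413.0), and PDGFRB was found in 75.0% of them, POSTN in 64.3% and KCNK3 in 57.1%. Just outside it, 188 cells met all other criteria with 1 gate gene, at a median of 5074.5 UMIs. PDGFRB was found in 44.7% of these, POSTN in 2.66%, KCNK3 in 4.79% and COL1A1 in 66.0%, against COL1A1 in 7 of the 28 pericytes with 2 gate genes and in 10.3% of those with 4.

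Clustering of the 5456 QC cells without a PTPRC UMI, with all genes that the gate reads removed, placed 142 of the 154 pericytes (92.2%, 95% Wilson interval 86.9 to 95.5) in 1 of 17 clusters. This cluster held 158 cells, of which 89.9% were gated pericytes. Of its 16 other cells, 8 had a PECAM1 UMI, 11 had at least 2 gate genes and the other 5 had 1. Most of the cells were thus also grouped by genes outside the gate, which describes the same cells and is not a test.

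The 5 control pericytes were not alike. Only 2 of them, 1 in replicate 1 and 1 in replicate 3, lay in the pericyte cluster, and 14 and 13 of the 20 genes that lead the pericytes (gate genes left out) were detected in them. In the other 3 only 4, 5 and 6 were detected, against a median of 16 (range 1 to 20) in the 149 asthma pericytes. One of these 3 held 207 UMIs of the Fib gene DCN, one 5 UMIs of the SMC gene CNN1 and one 5 UMIs of ACTG2. In the asthma replicates 8, 10 and 11, 6 of 7, 24 of 25 and 110 of 117 pericytes lay in the cluster, so gated cells outside it were found in both groups, and the leading genes were ranked over all 154 pericytes, 149 of them from asthma libraries. With cluster cells in place of the gate the control libraries held 1, 0 and 2 cells and the asthma libraries 7, 24 and 124 (1.19% ± 1.49 and 0.0238% ± 0.0246 of QC cells, SD, n = 3 each; exact permutation p = 0.1).

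With 5 control pericytes in all, and no control library with more than 2, gene expression could not be compared between the groups with a test. The control cells held 14867 UMIs, and their pooled levels mix different cells: 219 of their UMIs were DCN (14700 CPM, 212 of them in replicate 1) and 82 were ACTA2, the smooth muscle actin (5520 CPM, 69 of them in replicate 3). COX4I2 had 11 UMIs in them (740 CPM, exact Poisson interval 369 to 1320). In what follows, levels are those of the pericytes as a whole or of the asthma libraries, and tests compare populations within asthma libraries.

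Genes given with the gate as markers were present. PDGFRB, the receptor for PDGF-B that holds pericytes on vessels, had 3370, 2600 and 3020 CPM in asthma replicates 8, 10 and 11, and was found in 90.9% of the pericytes. It was also found in 9.69% of T cells and 10.3% of all other QC cells, at 25.2 and 21.0 CPM, so a single UMI of it marks little. POSTN, which encodes the matricellular protein periostin, had 3080 CPM over all pericytes and 2.65 CPM over other QC cells, and was found in 82.5% and 0.69% of them.

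Ranked by fold over the other QC cells with 10 CPM added, the 10 leading genes were COX4I2, POSTN, NOTCH3, HIGD1B, PDGFRB, KCNK3, BGN, CA2, TBX2 and ANGPT2, with log2 folds from 8.88 to 6.16. KCNK3 encodes the TASK-1 potassium channel that sets the resting potential of pulmonary vessels, BGN the proteoglycan biglycan, CA2 carbonic anhydrase 2, TBX2 a T-box transcription factor of lung mesenchyme and ANGPT2 the TIE2 ligand angiopoietin 2. KCNK3 was found in 71.4% of the pericytes and 0.246% of other QC cells, CA2 in 64.9% and 1.01%, and ANGPT2 in 68.8% and 2.1%. These folds compare chosen cells with the rest and carry no test.

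**Figure D2:**
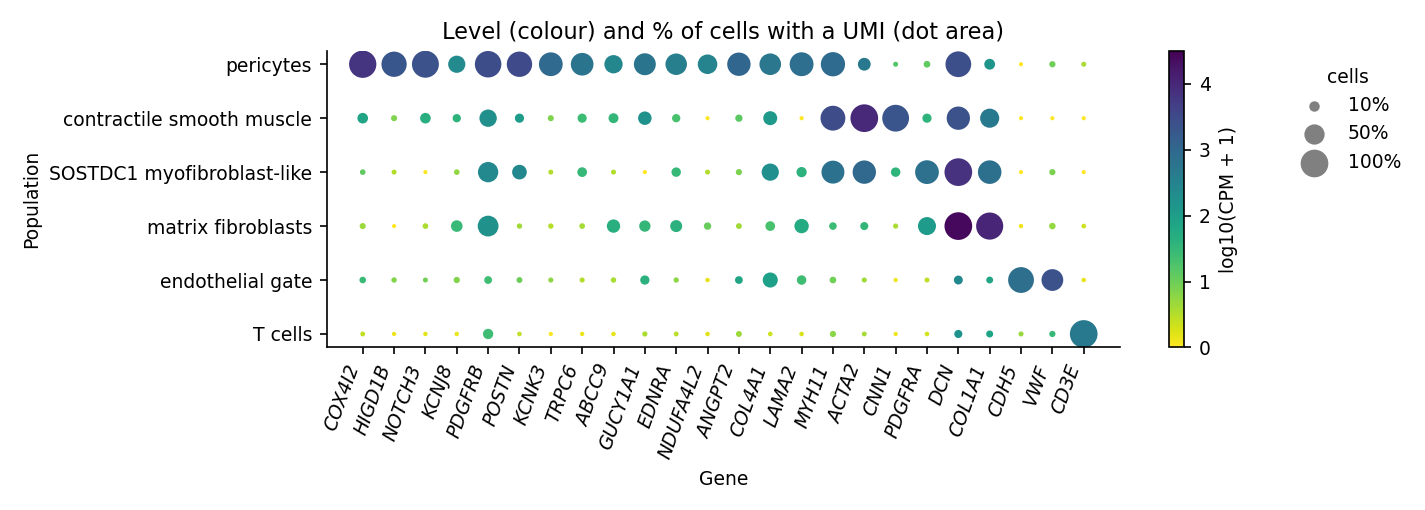
Level (colour, log10 of CPM + 1 over the summed cells of a population) and percentage of cells with a UMI (dot area) for 24 genes in pericytes and 5 other gated populations. COX4I2 to KCNJ8 are read by the pericyte gate, and darker means higher. The pericyte row holds large dots for COX4I2 (96.8% of cells) and NOTCH3 (94.2%), which are small in every other row, and a small dot for ACTA2 (16.9%), which is large for contractile SMCs.

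The pericytes were then compared with matrix Fibs (at least 3 of DCN, LUM, COL1A1 and COL1A2, none of SOSTDC1 and ASPN) within the 3 asthma libraries, 149 pericytes against 370 of the 605 matrix Fibs, with the library as a block and edgeR's quasi-likelihood test on summed UMIs. Both populations were chosen by measured genes of the same cells, so the calls describe how they differ and are no independent test of what they are. Summed UMIs were 325938 in the pericytes and 1897374 in the matrix Fibs. The fit had 2 residual degrees of freedom, and its dispersion was pooled over genes. Each standard error (SE) is the absolute log2 fold change over the square root of the test's F. The SE and adjusted p below thus do not measure the spread of a single gene between the 3 animals. Genes that a gate reads are left out of all counts. Of 5862 genes tested, 504 were higher in pericytes (8.6%) and 733 were lower (12.5%), where a call needs an adjusted p (Benjamini-Hochberg) below 0.05 and a log2 fold change beyond 1 in either direction. Without asthma replicate 10 the counts were 264 and 321, and without asthma replicate 11 they were 211 and 416. The median log2 fold change of all tested genes was -0.0852. Without TMM scaling 901 genes were higher and 445 lower (66.9% of the calls higher, against 40.7%) and the median was 0.406, so small differences depend on the scaling. In each list below the genes that passed the filter on low counts are the ones counted, and a gene abundant in 1 population passes more easily.

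Of 22 mural identity genes 15 were tested, and 12 were higher in pericytes and 1 was lower. TRPC6, a cation channel, had 190 UMIs in pericytes and 5 in matrix Fibs, a log2 fold change of 6.94 ± 0.592 (SE, n = 3 libraries). RGS5, a regulator of G-protein signalling often used to mark pericytes, differed by 6.83 ± 0.682, but with no UMI in the pericytes of asthma replicate 8. FAM162B, another pericyte gene, differed by 6.51 ± 0.598 and CSPG4, the proteoglycan NG2, by 4.46 ± 0.598. PDGFRB, which Fibs also express, differed by 3.29 ± 0.474. THY1, a surface protein of Fibs, was lower in pericytes (-2.02 ± 0.46). HEYL (1.24 ± 0.534, adjusted p = 0.0835 in the edgeR test) and CD248 (0.998 ± 0.653, adjusted p = 0.32) did not pass. HEYL was called higher without TMM, with no library block and without asthma replicate 10. EBF2 and S1PR3 had no UMI in any pericyte. Without asthma replicate 11, 10 genes of this list were tested and 6 were higher, with RGS5 and CSPG4 not tested and ABCC9 no longer called. RGS5 was also not among the higher genes without asthma replicate 10 or with no library block, nor was PLXDC1 without asthma replicate 10.

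All 5 tested genes of the ATP-sensitive potassium channel and membrane potential list were higher in pericytes. KCNK3 had 13, 33 and 267 UMIs in the pericytes of asthma replicates 8, 10 and 11, or 1250, 780 and 977 CPM, and 3.69 CPM in the matrix Fibs of these libraries (log2 fold change 7.44 ± 0.556, adjusted p = 1.59e-37 in the edgeR test). ABCC9, the SUR2 subunit that pairs with the KCNJ8 pore, had 289, 284 and 271 CPM in the pericytes of the same libraries and was found in 39.6% of all pericytes (2.3 ± 0.448 against matrix Fibs). Of the other channel pair, ABCC8 had 1 UMI in the 340805 UMIs of pericytes, and KCNJ11 had none in these or in any other QC cell. CACNA1H, a T-type calcium channel (4.97 ± 0.639), was higher too, with no UMI in the 7 pericytes of asthma replicate 8. KCNA5 and KCNK17 had no UMI, and CACNA1C, the L-type channel of smooth muscle, had 1. KCNA5 and CACNA1C were rare in other QC cells too, found in 0.00396% and 0.0198% of them. Without asthma replicate 11, 3 genes of this list were tested and 2 were higher, with CACNA1H not tested and ABCC9 no longer called.

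In the Notch list, NOTCH3 itself is read by the gate. Of 5 other genes tested, NOTCH2 (1.21 ± 0.384) and HES1, a Notch target (2.19 ± 0.421), were higher in pericytes than in matrix Fibs, and 3 did not pass. NOTCH2 lost its call with DESeq2 (adjusted p = 0.172), with a mitochondrial maximum of 10%, with no filter on low counts and without asthma replicate 10 or 11, and JAG1 was lower without replicate 11. HEYL, which did not pass, was called higher without TMM, with no library block and without asthma replicate 10. The ligands were sparse in pericytes, with 28 UMIs of JAG1, 14 of DLL1, 1 of DLL4 and none of JAG2, as was the endothelial receptor NOTCH4 with none. In the EC gate DLL4 had 121 CPM and JAG2 89.9 CPM. The targets HEY1 and HEY2, at 1 and 2 UMIs, were likewise near 0 in pericytes.

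Of the PDGF genes 4 were tested, 2 higher and 2 lower. Of the receptors, PDGFRB had 2890 CPM in all pericytes, and PDGFRA, the receptor of Fibs, had 4 UMIs in all pericytes (11.7 CPM), against 110 CPM in matrix Fibs and 697 CPM in SOSTDC1 myofibroblast-like cells. Among the ligands, PDGFA was higher in pericytes than in matrix Fibs (2.63 ± 0.898, in 2 of 3 libraries). This rests on 16 UMIs against 8, or 49.1 and 4.22 CPM. PDGFC had no UMI, and PDGFB had 1 UMI in pericytes and 105 CPM in the EC gate. PDGFD had 70 UMIs in matrix Fibs and none in the asthma pericytes, so that it was at least 4.01-fold lower (floor of 3 UMIs over the 3 libraries). PDGFA lost its call with DESeq2 (adjusted p = 0.179), and was too low to be tested without asthma replicate 8 or 11, with libraries of at least 10 cells, with at least 3 of 4 gate genes, with a mitochondrial maximum of 10% and with no library block.

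Of the respiratory chain and hypoxia list, 7 genes that no gate reads were tested, and 2 were higher and 2 lower in pericytes than in matrix Fibs. NDUFA4L2, a mitochondrial complex protein induced under low oxygen, had 385, 354 and 296 CPM in asthma replicates 8, 10 and 11 and was at 12.1 CPM in the matrix Fibs (4.76 ± 0.511). EPAS1, which encodes hypoxia-inducible factor 2 alpha, had 578, 638 and 1040 CPM (2.16 ± 0.416), while the EC gate held 5910 CPM. VEGFA (-1.58 ± 0.563) and ADM, adrenomedullin (-4.14 ± 0.564), both well-known hypoxia targets, were lower in pericytes, and HIF1A (-0.879 ± 0.524), HIGD1A (-0.632 ± 0.555) and COX7A1 (-1.05 ± 0.443) did not pass. EGLN3 had no UMI in pericytes. VEGFA lost its call with DESeq2 (adjusted p = 0.125), without TMM, with no filter on low counts, with libraries of at least 10 cells and without asthma replicate 8 or 10, and ADM kept it in each of these. COX7A1 was called lower with libraries of at least 10 cells, with at least 3 of 4 gate genes and without asthma replicate 8.

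Of 11 contractile genes tested, 8 were higher in pericytes than in matrix Fibs and none was lower. MYH11, smooth muscle myosin, had 770, 756 and 915 CPM in asthma replicates 8, 10 and 11 (4.47 ± 0.452), TPM1, a tropomyosin, differed by 2.9 ± 0.418 and LMOD1, an actin nucleator, by 2.86 ± 0.402. ACTA2 differed by 2.34 ± 0.461 but was found in only 16.9% of the pericytes, with 96.3, 780 and 161 CPM in asthma replicates 8, 10 and 11. TAGLN (0.131 ± 0.461), SMTN (0.331 ± 0.567) and CNN3 (-0.843 ± 0.419) did not pass. Without asthma replicate 10, 4 of 12 tested were higher, and with DESeq2 5 of 11, ACTA2 and CALD1 losing the call in both. CALD1 also lost it without asthma replicate 11.

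Against contractile SMCs (57 cells; at least 2 of ACTG2, CNN1 and DES) only asthma replicate 11 held at least 5 cells of both populations, so the values are given with no test. In that library ACTA2 had 161 CPM in 117 pericytes and 6310 CPM in 9 SMCs, TAGLN 2110 and 13200 CPM, and MYL9 834 and 5470 CPM. MYH11 lay closer, at 915 and 1090 CPM, as did LMOD1 at 564 and 752 CPM, and CALD1, caldesmon, was at 3890 CPM in pericytes and 1880 CPM in SMCs. MYOCD, the coactivator of the smooth muscle programme, had 1 UMI in the pericytes of the library and 3 in the SMCs (3.66 and 125 CPM). On the pericyte side, PDGFRB was at 3020 and 167 CPM, KCNK3 at 977 and 41.8 CPM (1 UMI in SMCs), and ANGPT2 had 321 UMIs in pericytes and none in the SMCs.

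Genes of vascular tone followed. Of 13 tested genes of vasoactive receptors and cyclic nucleotides, 9 were higher in pericytes than in matrix Fibs and 1 was lower. All 3 soluble guanylate cyclase subunits, the receptors of nitric oxide, were among the 9: GUCY1A1 (1250, 543 and 586 CPM in asthma replicates 8, 10 and 11; 3.9 ± 0.406), GUCY1A2 (4.28 ± 0.508) and GUCY1B1 (3.26 ± 0.397). The cyclic GMP-dependent kinase PRKG1 differed by 1.98 ± 0.503, and PDE5A, which breaks cyclic GMP down, by 0.981 ± 0.378, under the fold threshold. Receptors for endothelin (EDNRA, 2.78 ± 0.406; EDNRB, 3.02 ± 0.826), angiotensin (AGTR1, 3.45 ± 0.621) and natriuretic peptides (NPR3, 3.62 ± 0.598, in 2 of 3 libraries) were higher too. The prostaglandin receptor PTGER4 was lower, with 1 UMI against 116 (3.07 and 61.1 CPM), and the prostacyclin receptor PTGIR did not pass (-0.139 ± 0.537). ADRA1A, ADRA2A, ADRA2C, PTGER1 and PTGER3 had no UMI in pericytes. Without asthma replicate 11, 4 of 7 tested genes were higher, with PRKG1 no longer called and AGTR1, EDNRB, NPR3 and PTGER4 not tested. NPR3 was also not tested without asthma replicate 10, where 7 of 13 were higher, with a mitochondrial maximum of 10% or with no library block, and AGTR1 not without asthma replicate 8, with libraries of at least 10 cells, with at least 3 of 4 gate genes or with no library block.

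Of 11 tested basement membrane genes 5 were higher in pericytes than in matrix Fibs and 1 was lower: the collagen IV chains COL4A1 (3.86 ± 0.412) and COL4A2 (4.21 ± 0.476), the laminin chains LAMA2 (3.4 ± 0.416) and LAMB1 (1.66 ± 0.445) and nidogen, NID1 (1.46 ± 0.404), against LAMC1 (-1.39 ± 0.434). The chains COL4A3 and COL4A4, which are those of the alveolar epithelium, had 1 and 0 UMIs. SPARC, a collagen-binding protein, did not pass (0.00293 ± 0.485). Without asthma replicate 10, 3 of the 11 were higher and none was lower, LAMB1, NID1 and LAMC1 losing the call.

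Of 15 interstitial matrix genes tested that no gate reads, 2 were higher and 9 lower in pericytes. POSTN had 1038 UMIs in pericytes and 9 in the matrix Fibs of the same libraries (3180 and 4.74 CPM, 9.05 ± 0.695). BGN had 798 and 993 UMIs, or 2450 CPM in pericytes and 523 CPM in matrix Fibs (1.89 ± 0.454). Among the lower genes were MGP, matrix Gla protein (-4.74 ± 0.719), FBLN1, fibulin 1 (-6.02 ± 0.659), COL14A1 (-4.3 ± 0.566), COL3A1 (-2.18 ± 0.554) and FN1, fibronectin (-2.12 ± 0.519). COL1A1 and COL1A2, which the Fib gate reads, had 135 and 337 CPM in the pericytes and 8420 and 5430 CPM in the matrix Fibs of these asthma libraries. COL5A2, another fibrillar collagen chain, had 819 CPM in pericytes and 307 CPM in matrix Fibs and did not pass (0.952 ± 0.403, adjusted p = 0.0768 in the edgeR test), but was called higher without TMM, without asthma replicate 8, with libraries of at least 10 cells and with at least 3 of 4 gate genes. With asthma replicate 10 left out only POSTN was higher and 6 were lower, BGN, COL3A1 and FN1 losing the call, and without TMM 5 were higher and 9 lower.

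Among growth factors, 19 genes were tested, of which 5 were higher and 7 lower in pericytes. ANGPT2 had 15, 26 and 321 UMIs in asthma replicates 8, 10 and 11, or 1440, 614 and 1170 CPM, and 5.27 CPM in matrix Fibs (7.07 ± 0.546). ANGPT1, the stabilizing TIE2 ligand, did not pass (0.339 ± 0.39, adjusted p = 0.635 in the edgeR test). HGF, hepatocyte growth factor (2.42 ± 0.472), TGFB2 (2.01 ± 0.374), IGFBP7 (1.27 ± 0.476) and ID1 (1.35 ± 0.461) were higher. ID1 was so in 2 of 3 libraries, with -0.294 without asthma replicate 11. FGF7, a Fib factor for epithelium, was lower (-4.79 ± 0.644), as were IGFBP5 (-4.1 ± 0.565), ANGPTL1 and IGFBP3, the last with 1 UMI against 551 (3.07 and 290 CPM). TGFBR2 (-1.39 ± 0.434), TGFB3 and ENG were lower too, each in 2 of 3 libraries. Without asthma replicate 10, 3 were higher and 5 lower, and without asthma replicate 11, 2 were higher and 5 lower of 16 tested. IGFBP7, ID1 and ENG lost the call in both, TGFBR2 without replicate 10 and HGF without replicate 11.

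Most tested genes of cytokines, chemokines and complement were lower in pericytes, 9 of 12, and 2 were higher. Among the higher genes IL13RA1, a subunit of the receptor for interleukins 4 and 13, had 770, 473 and 611 CPM in asthma replicates 8, 10 and 11 (1.52 ± 0.388). Its partner IL4R had no UMI in any pericyte and was found in 18.3% of other QC cells, so the pair was not detectable together in pericytes at this depth. C3 (-6.2 ± 0.691), CXCL12 (-4.41 ± 0.565), CCL11 (-4.12 ± 0.564), C7 (-3.21 ± 0.601), SERPING1 (-2.64 ± 0.519) and IL33 (-2.49 ± 0.551) were lower, C7 still at 1580 CPM and in 81.8% of pericytes. CCL2, CCL8, CCL19, CCL21 and IL6 had no UMI. Without asthma replicate 10, 1 was higher and 6 were lower, and without asthma replicate 11, 1 was higher and 8 were lower of 11 tested. IL13RA1 lost the call in both, and IL33 without replicate 10.

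Immediate-early and stress genes were lower in 9 of 16 tested and higher in none, among them FOS (-2.36 ± 0.503), FOSB (-2.35 ± 0.473), EGR1 (-2.37 ± 0.472), ATF3 (-2.53 ± 0.475) and DNAJB1, a co-chaperone (-3.05 ± 0.564). These genes also respond to dissociation of tissue. FOS was found in 36.4% of pericytes and in 88.0% of other QC cells, at median depths of 2095.5 and 4241.0 UMIs. Without asthma replicate 10, or without TMM, 5 of the 16 were lower. The part of depth or of handling was not tested.

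**Figure D3:**
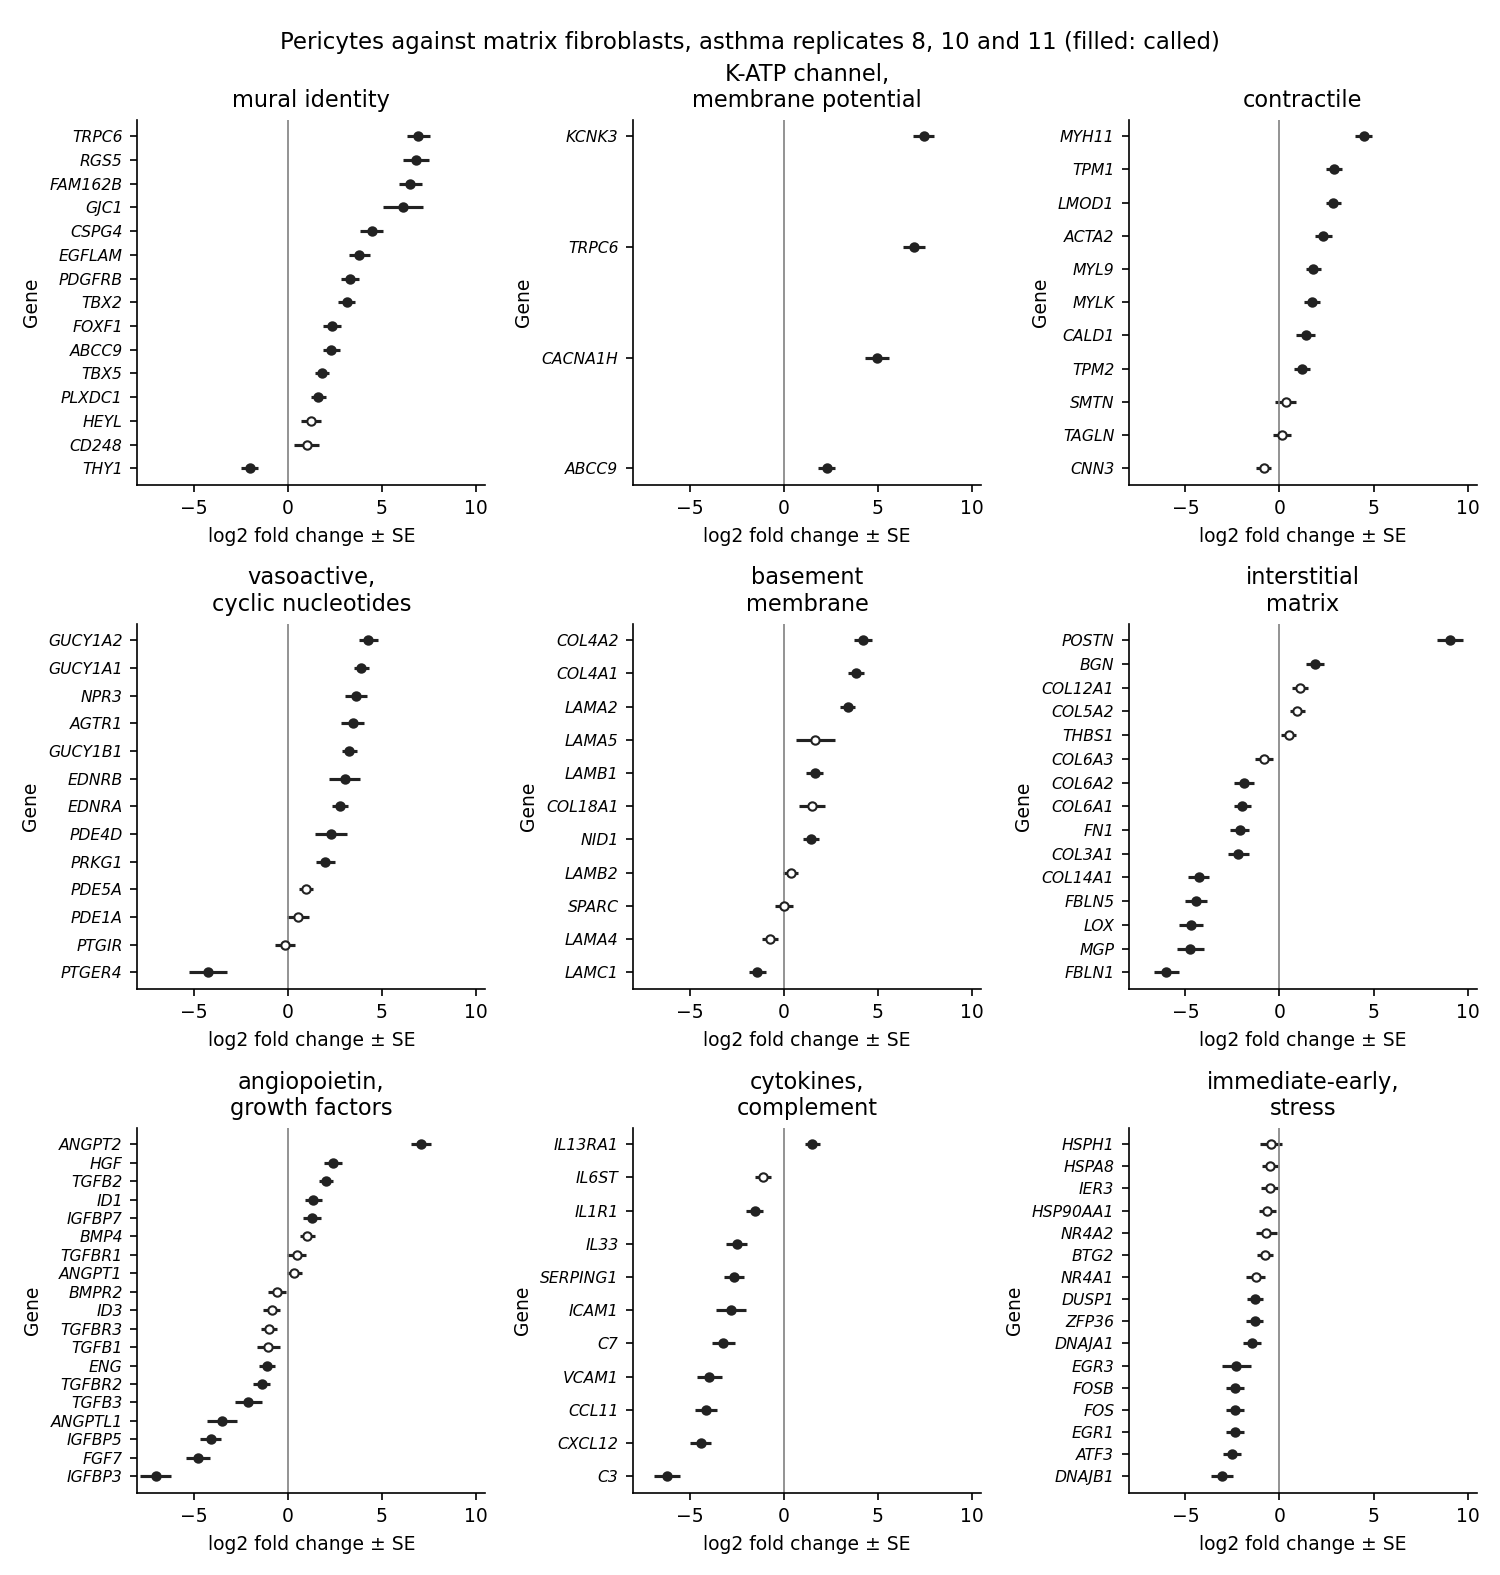
Log2 fold change of summed UMIs, pericytes against matrix Fibs, for the tested genes of 9 lists. Bars are the standard error (edgeR, n = 3 asthma libraries), which rests on a dispersion pooled over genes. Filled points passed an adjusted p of 0.05 and an absolute log2 fold change over 1. Genes that a gate reads, genes with no UMI in 1 of the populations, and some genes not reported here are not drawn. Mural, channel, contractile and vasoactive genes lie mostly to the right of 0, and interstitial matrix, cytokine and immediate-early genes mostly to the left.

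Beyond the lists, the 10 genes with the largest log2 fold changes among the higher calls with all 3 libraries on 1 side were CA2, COLEC10, DGKG, POSTN, GCGR, LPAR3, KLHL23, NPY, SLC22A3 and CDH19. Against a floor of 3 UMIs in matrix Fibs, CA2 was at least 668-fold higher, COLEC10, a collectin, at least 340-fold, DGKG, a diacylglycerol kinase, at least 210-fold, GCGR, the glucagon receptor, at least 136-fold, and LPAR3, a receptor for lysophosphatidic acid, at least 99.0-fold. SLC22A3, an organic cation transporter, was at least 77.6-fold and CDH19, a cadherin, at least 56.3-fold higher. KLHL23 had 286 UMIs against 2, a ratio of 832 (95% counting interval 228 to 6910). NPY, the vasoconstrictor peptide neuropeptide Y, had 181 UMIs against 1, a ratio of 1050 (95% counting interval 187 to 41800).

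The 10 lower genes chosen in the same way had no UMI in the asthma pericytes. OSR1, a transcription factor of mesenchyme, was at least 32.9-fold lower, ECM1 at least 30.3-fold, CDA, cytidine deaminase, at least 40.9-fold, and the Wnt antagonists SFRP1 and SFRP4 at least 24.9-fold and 9.33-fold. ITGBL1, ADAMTS2, which cleaves procollagen, SSC5D, PRG4, lubricin, and MN1 made up the rest, at least 22.5-fold, 14.5-fold, 10.8-fold, 8.7-fold and 8.65-fold lower.

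A second comparison set the pericytes against SOSTDC1 myofibroblast-like cells (at least 2 of SOSTDC1, ASPN and TNC), mesenchymal cells that share part of the contractile genes. Only asthma replicates 10 and 11 held at least 5 cells of both, 142 pericytes against 84 of the 157 myofibroblast-like cells. Replicate 10 held only 5 myofibroblast-like cells, so the fit rests mainly on replicate 11 and has 1 residual degree of freedom. Its SE and adjusted p again rest on a dispersion pooled over genes and do not measure the spread of a single gene between animals. Of 2856 genes tested 227 were higher in pericytes (7.95%) and 128 lower (4.48%), and DESeq2 called 49 and 31. None of 10 tested contractile genes passed in either direction, with a median log2 fold change of 0.762 against 0.0523 over all tested genes, and ACTA2 at -1.64 ± 0.612 (adjusted p = 0.0567 in the edgeR test). This count of 0 depended on the setting: without TMM, and with libraries of at least 3 cells, LMOD1, TPM1, MYL9 and MYLK were higher and ACTA2 was lower. With doublets removed LMOD1, MYLK and TPM1 were higher, and with DESeq2 size factors in edgeR or at least 3 of 4 gate genes LMOD1 and TPM1, with ACTA2 lower in all 3 settings. The count stayed at 0 with DESeq2, with a mitochondrial maximum of 10%, with no filter on low counts and with no library block.

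Of the mural and channel lists, 8 of 12 and 4 of 4 tested genes were higher than in the myofibroblast-like cells and none was lower. The 4 channel genes had at most 7 UMIs in those cells, so they passed the filter through the pericytes and could only come out higher, and these counts describe the genes and support nothing about the lists. RGS5 (5.23 ± 0.856, SE, n = 2 libraries), TRPC6 (4.07 ± 0.75) and PDGFRB (3.16 ± 0.646) were among them, and KCNK3 had 300 UMIs against 1 (ratio 229, 95% counting interval 40.8 to 9070). ABCC9, CSPG4, EGFLAM and CACNA1H had no UMI in the myofibroblast-like cells of these libraries and were at least 21.9-fold, 12.7-fold, 13.7-fold and 16.0-fold higher. GUCY1A1, with 183 UMIs against none, was at least 46.5-fold higher. Of 7 tested vasoactive genes 5 were higher, of which DESeq2 called only GUCY1A2 and GUCY1B1. These 5 had at most 10 UMIs in the myofibroblast-like cells and passed the filter mainly through the pericytes. Their count describes the genes and supports nothing about the list. DESeq2 called 5 of the 12 mural genes and all 4 channel genes. POSTN (3.8 ± 0.672) and BGN (2.6 ± 0.625) were higher here as well.

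Lower in pericytes than in the myofibroblast-like cells were PDGFRA, with 3 UMIs against 215, FGF7 (-5.64 ± 0.763), IGFBP5 (-4.84 ± 0.712), MGP (-3.58 ± 0.607) and TGFBR3, the co-receptor betaglycan (-2.74 ± 0.621). The genes named by size were, on the higher side, NPY, GUCY1A1, SLC35G1, DGKG, COL5A3, ABCC9, PTP4A3, GCGR, P2RY14 and AFF2. On the lower side they were SFRP4, ISM1, SPON2, DEFB1, SERPINE2, SSC5D, FXYD6, PDGFRA, FNDC1 and CD200. NPY was at least 45.3-fold higher, and SFRP4, with 109 UMIs in the myofibroblast-like cells and none in pericytes, at least 47.6-fold lower.

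The pericytes of the 3 asthma animals differed little in some genes and by more than counting error in others. PDGFRB, BGN (2410, 2580 and 2430 CPM in asthma replicates 8, 10 and 11), TBX2 (1250, 1700 and 1750 CPM) and ABCC9 had overlapping 95% counting intervals in all 3. POSTN was at 5580 and 6450 CPM in replicates 8 and 10 and at 2590 CPM in replicate 11 (interval 2400 to 2790), and COL4A2 at 3750, 2910 and 1170 CPM. FAM162B was highest in replicate 10, at 803 CPM against 190 CPM in replicate 11. RGS5 went the other way, with 0 of 10387 UMIs in replicate 8 (upper limit of the interval 355 CPM), 118 CPM in replicate 10 (38.4 to 276) and 780 CPM in replicate 11 (678 to 892), and NPY had 289, 118 and 633 CPM. Each animal is 1 library, so these intervals hold counting error and not the spread between animals under 1 condition.

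**Figure D4:**
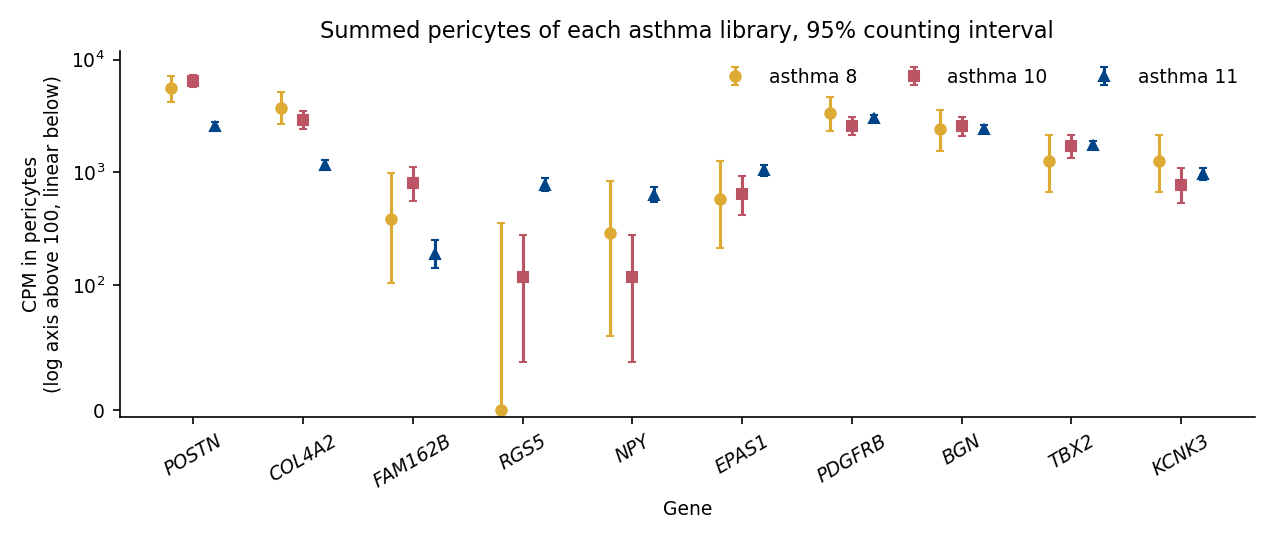
Level of 10 genes (CPM over the summed pericytes of each asthma library, log axis above 100 and linear below) with exact 95% Poisson intervals as bars, for 7, 25 and 117 pericytes. POSTN, COL4A2 and FAM162B are lower and RGS5 is higher in replicate 11 than in replicate 10, while PDGFRB, BGN, TBX2 and KCNK3 overlap in all 3.

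Markers of other cells were low in the pericytes, and their part in the results was not tested. Of 11 endothelial markers 5 were detected, summing to 296 CPM against 15300 CPM in the EC gate, and CLDN5, CDH5, TEK, FLT1 and EMCN were at 0, as PECAM1 is by the gate. ESAM, which mural cells also express, was the most abundant at 39 UMIs. Of 12 immune markers 7 were detected, summing to 193, 756 and 274 CPM in asthma replicates 8, 10 and 11, with LYZ the most abundant (58 UMIs, in 31.8% of pericytes and 29.4% of T cells).

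Epithelial markers summed to 289, 260 and 1160 CPM in asthma replicates 8, 10 and 11, nearly all SFTPC, the surfactant gene of alveolar type 2 cells, with 300 UMIs, while KRT5 and CDH1 were at 0. T cells held 1040 CPM of SFTPC. The epithelial sum was 974 CPM over all pericytes and 1290 CPM in T cells. It was lower in matrix Fibs (523 CPM), SOSTDC1 myofibroblast-like cells (466 CPM), the EC gate (261 CPM) and contractile SMCs (216 CPM). Mesothelial markers summed to 289, 284 and 11 CPM in asthma replicates 8, 10 and 11, nearly all ITLN1 (17 UMIs), with MSLN, UPK3B, CALB2 and BNC1 at 0, and erythroid markers to 8.8 CPM with ALAS2 at 0. All 9 Fib markers were detected, at 3860 CPM against 58700 CPM in matrix Fibs, with DCN the most abundant at 880 UMIs, and all 6 SMC markers at 1550 CPM against 10800 CPM in contractile SMCs, with MYH11 the most abundant at 305 UMIs. Gates read 4 of these Fib markers and 3 of these SMC markers, so both contrasts are partly set by how the cells were chosen.

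Barcodes shared between libraries were few, 82 over the 15 pairs of libraries among QC cells, and 1 pericyte barcode was also seen in another library.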

How the data were processed

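The authors aligned the reads of 6 libraries, 1 per monkey, to macFas6 with Cell Ranger. The deposited values are unnormalized UMI counts of 28623 genes in 35133 barcodes, the number of cells that the study states. Versions of Cell Ranger differ between the sources (4.0.0 in the file headers, 2.1.1 in the submitters' processing notes and another in the study's methods). The filter on more than 500 and fewer than 5000 genes and at most 25% of UMIs in 13 mitochondrial protein genes left 25388 cells, more than the study states, and the mitochondrial genes behind its filter are not given in the sources used here. The members and gene lists were chosen with earlier results of these data known.

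Shares were compared by two-sided exact permutation over the 20 assignments of libraries. Counts summed per library and population (at least 5 cells of both) were tested with edgeR 4.0.16 (TMM, filterByExpr, library as block, quasi-likelihood, Benjamini-Hochberg; R 4.3.3), tested on simulated data. Levels are counts per 1000000 UMIs of a population. Clustering used scanpy 1.11.5 (10000 counts per cell, 2000 variable genes, 10 components, 20 neighbours, Leiden resolution 0.8) and doublets Scrublet scores. No doublets were removed, because Scrublet's own threshold marked 10 cells. As an alternative the 866 cells with the highest scores, 0.8% per 1000 cells, were removed.

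Named genes are the gate genes and given markers, members of 19 lists (cell markers included), the 10 leading genes against other QC cells, and per test the 10 higher and 10 lower calls with the largest log2 fold change and all libraries on 1 side. Differences between asthma and control within pericytes, and sequences, were not analysed here. Some genes that the list counts include are not reported here by name. Alternatives were DESeq2 1.42.0, its size factors in edgeR, no TMM, no filter on low counts, no block, at least 3 or 10 cells, at least 3 of 4 gate genes, KCNJ8 not used, 10% mitochondrial maximum, doublets removed, thinning to 1500 UMIs with shallower cells left out, other denominators, and each library left out.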

Additional observations from a re-analysis of the deposited data

Results flagged for a closer look

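Cells with at least 2 gate genes were also found outside the gate. In 32 QC cells of the asthma libraries (1, 8 and 23 in replicates 8, 10 and 11) they came with a PTPRC UMI, at a median of 3442.5 UMIs per cell, against 0 in the control libraries. Among barcodes that failed QC, 34 in the asthma libraries and 1 in the control libraries held at least 2 gate genes and no PTPRC or PECAM1 UMI, of 5198 and 4547 such barcodes. Of the 29 in asthma replicate 11, all had too few genes. None of them is counted as a pericyte above, and the 32 cells are among the QC cells that the shares are taken of.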

How the results depend on the processing

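The difference in the share of pericytes kept its direction under every alternative run, with groups that overlapped only with ECs as denominator. Of QC cells it was between 0.918 and 1.12 percentage points under the other gates, filters and removal of doublets. With cluster cells in place of the gate it was 1.17. Leaving out 1 library gave 0.306 to 1.59. It was 3.38 of QC cells without a PTPRC UMI, and 0.93 of QC cells after leaving out cells under 1500 UMIs and thinning the rest. Of mesenchymal cells it was 13.2 after the same step and 15.7 to 24.9 with 1 library left out. The step left out pericytes under 1500 UMIs: 3 of 7, 13 of 25 and 28 of 117 in asthma replicates 8, 10 and 11, and 1 of 2 each in control replicates 1 and 3. No paired analysis was possible because the groups share no replicate numbers.

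Against matrix Fibs, higher and lower calls were 299 and 463 with DESeq2, 901 and 445 without TMM, and from 211 to 612 and from 321 to 692 with 1 library left out (264 and 321 without asthma replicate 10, 211 and 416 without asthma replicate 11). Of 97 named genes called, 17 lost the call with DESeq2, 11 without TMM, 28 of 93 without asthma replicate 10 and 12 of 78 without asthma replicate 11, and ID1 turned to -0.294 without asthma replicate 11 (2.11 without replicate 8). Against SOSTDC1 cells DESeq2 gave 49 and 31 (18 of 41 named calls lost), libraries with at least 3 cells 131 higher of 578 tested, and doublet removal 217 lower. The causes were not tested. With 2 libraries none could be left out, nor did 10 cells leave 2. Contractile SMCs had no test at 5 cells. With at least 3 cells (asthma replicates 8 and 11) 82 genes were higher and 35 lower in pericytes of 284 tested. Depth limits genes with few UMIs, and 7 pericytes carry asthma replicate 8.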
